A study of Homo sapiens with 6 samples.

Results

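The genes described here are 44 genes of ribosome biogenesis and the nucleolus, chosen by name as well known factors of this pathway. The choice was made with earlier results of these data known. All 44 were found among the 36601 rows of the gene count table. All 44 also passed the filter on low counts and are among the 17839 genes tested. RNA was measured by stranded, polyA-selected RNA sequencing of U2OS cells, a human osteosarcoma line, in which doxycycline induces a fusion of TDP-43 with the green fluorescent protein Clover, labelled TDP-43-mNLS-Clover. Both groups carry and express this fusion. The aggregate group received 50 nM of fibril seeds made from the recombinant low-complexity domain (LCD) of TDP-43, and 48 hours later an image-based sorter collected the cells with Clover aggregates (3 libraries). The diffuse group was mock transfected with protein storage buffer and sorted for diffuse Clover signal (3 libraries). Each library comes from its own transfection, which the series design calls an independent biological replicate. Seeding, sorting gate and group coincide, so they cannot be told apart. All 6 libraries carry the same batch label. Whether the line is 1 clone, and which promoter the induction acts on, are not stated in the labels.

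A ribosome begins in the nucleolus, where RNA polymerase I copies the ribosomal DNA into a long precursor RNA. Box C/D and box H/ACA ribonucleoproteins, guided by small nucleolar RNAs (snoRNAs), methylate and pseudouridylate this precursor. A large assembly called the small subunit processome folds and cuts its first part, and separate factors such as the PeBoW complex mature the large subunit. Pathway genes are usually active in growing cells, and the transcription factor MYC is known to activate many of them through the DNA sequence CACGTG, called an E-box.

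Libraries held 40279084 to 46863013 gene counts, so a single count corresponds to 0.0213 to 0.0248 CPM (the count of a gene as a share of its library, scaled to the same library total), and no library had fewer than 610 counts for any of the 44 genes. TARDBP, which encodes TDP-43, was lower in aggregate cells, at 2534, 2590 and 2617 CPM against 7368, 7267 and 7685 CPM (log2 fold change -1.53), a count that can include both endogenous and induced transcripts. Of 10 osteosarcoma or mesenchymal markers, TWIST1 was below the filter on low counts, 2 rose and 5 fell, and their summed level ranged from 5821 to 6282 CPM in aggregate and from 8575 to 8972 CPM in diffuse libraries. Of 8 epithelial markers, with KRT19 below the filter, 1 rose and 3 fell, and their sum was 15.9 to 16.9 against 32.2 to 33.1 CPM, led by KRT14 (mean 1.52 against 12.1 CPM). Of 8 neuronal markers 4 rose and 4 fell, from RBFOX3 (2.85 on the log2 scale) to STMN2 (-3.62), with a sum of 302.5 to 309 against 274 to 294 CPM. Among genes of blood cells and macrophages, CD68 rose from 2.86, 2.29 and 2.79 CPM in diffuse to 12.1, 15.5 and 14.2 CPM in aggregate libraries (log2 fold change 2.40) and ITGAM rose by 0.57. The part of these shifts in the results below was not tested.

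Ribosome biogenesis genes were higher in aggregate cells. Levels are CPM scaled with TMM, a normalization for library composition, fold changes are aggregates over diffuse, and a gene is said to have risen or fallen when its p-value from edgeR's quasi-likelihood test, adjusted over all 17839 genes by Benjamini-Hochberg, was under 0.05. Of the 44 genes, 39 rose and 3 fell, whereas 37.8% of all genes tested rose and 37.6% fell. Among the 7897 genes with a mean level at or above the lowest of the 44, 42.3% rose and 44.2% fell. This contrast is a description and was not tested, since the list was chosen with earlier results known. The median log2 fold change was 0.55 over the 44 genes and 0.01 over all genes tested. DKC1 and UTP14A did not pass. The changes were moderate: among risen genes the fold ran from 1.12 to 2.09 with a median of 1.55, and 23 of the 44 (52.3%) exceeded 0.5 on the log2 scale, against 19.9% of all genes tested. POLR1C, WDR43, RRP9 and NOP14 had estimated rises beyond 2-fold, 4 of 44, where 6.67% of all genes did. RRP9 lay at that edge (log2 fold change 1.004, SE 0.04) and ran from 0.763 to 1.059 over the alternatives. When a change beyond 1.2-fold was required (edgeR glmTreat), 27 of the 44 remained risen and 2 fallen, against 25.1% and 26.5% of all genes. The summed share of all gene counts was 0.746%, 0.762% and 0.775% for aggregate libraries 1 to 3, and 0.554%, 0.551% and 0.552% for their diffuse counterparts, without overlap. Leaving out NPM1, the most abundant, gave 0.579%, 0.595% and 0.593% against 0.429%, 0.425% and 0.43%. These are relative levels in bulk RNA, in which fewer cells of a type and less RNA per cell cannot be told apart.

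**Figure D1:**
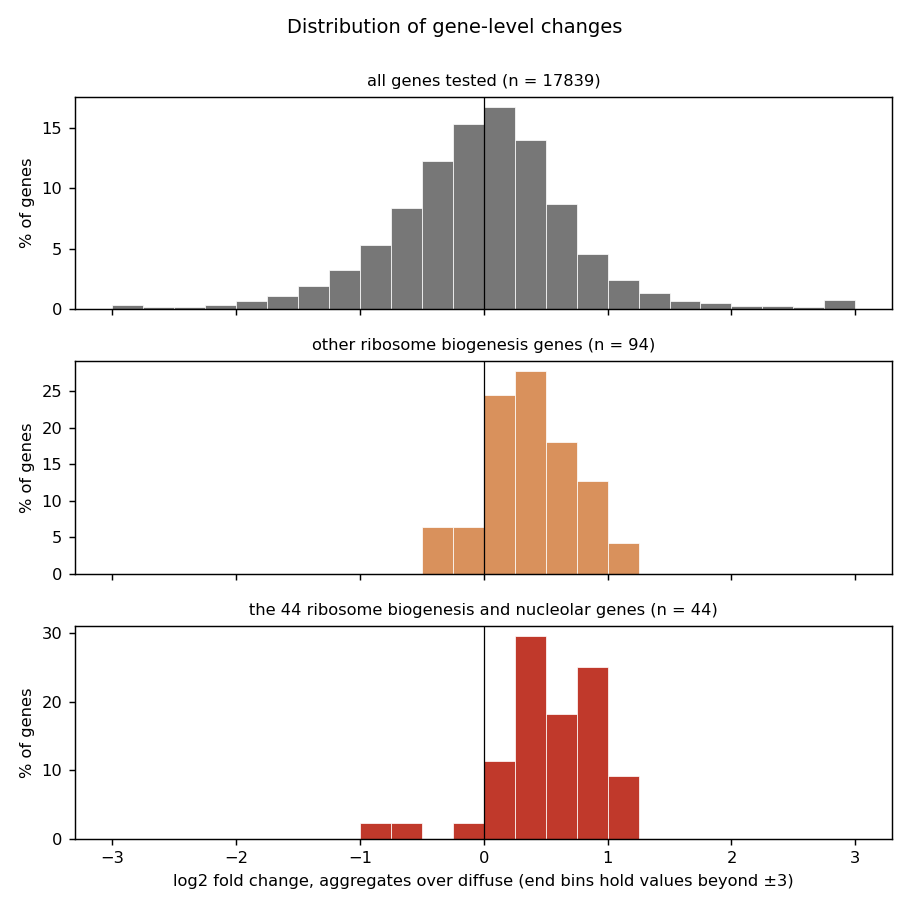
Share of genes (percent, vertical axis) in each bin of log2 fold change, aggregates over diffuse (horizontal axis), for all genes tested, for other ribosome biogenesis genes and for the 44 genes. The bars of the 44 genes lie mainly to the right of 0, with a median of 0.55, while those of all genes centre on 0.01.

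**Figure D2:**
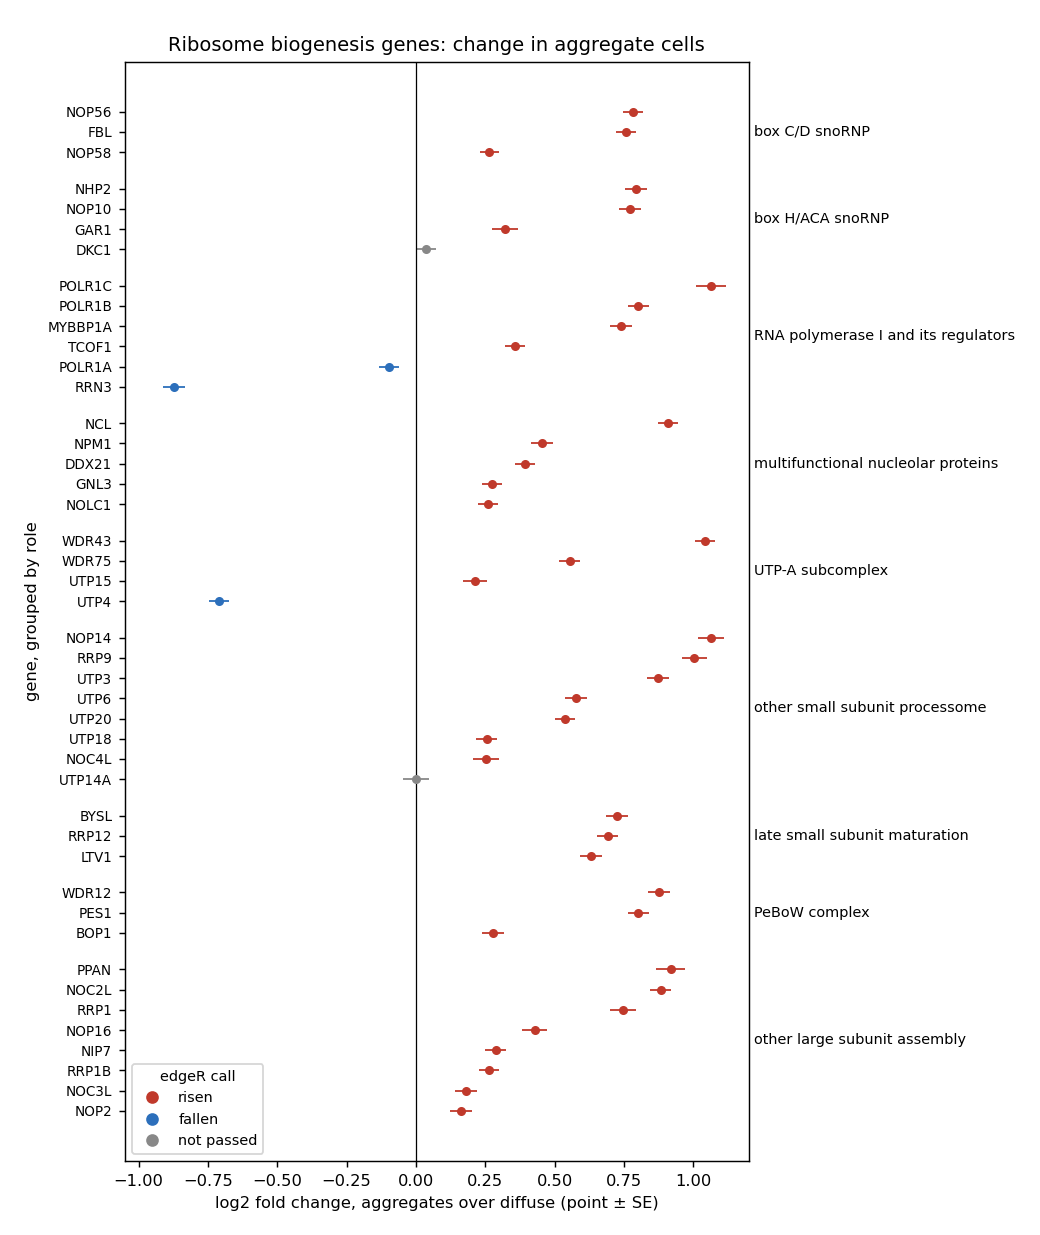
Log2 fold change of each of the 44 genes with its standard error, grouped by role; red marks risen, blue fallen and grey genes that did not pass. RRN3, UTP4 and POLR1A lie left of 0 and DKC1 and UTP14A lie at it, whereas the other 39 lie to the right.

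The groups did not overlap for 42 of the 44 genes, against 76.2% of all genes tested. The exceptions were DKC1 and UTP14A. Compared per kilobase of exon sequence, the highest levels in diffuse cells were those of NPM1, with 326 CPM per kilobase, NOP10, with 106, and DDX21, with 90, and the lowest was that of POLR1C, with 2.79. Of the genes that fell, RRN3 had 21.2 CPM per kilobase and UTP4 49.4. Gene positions below are those of GENCODE 29 on hg38.

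Genes of 3 core proteins of the box C/D ribonucleoprotein, which carries out 2'-O-methylation of ribosomal RNA, all rose. NOP56 (chromosome 20, 2652145 to 2658393, plus strand), a scaffold of the particle, stood at 261, 268 and 265 CPM in the aggregate libraries and 156, 156 and 151 CPM in the diffuse libraries (log2 fold change 0.78, SE 0.04, adjusted p = 1.01e-36). FBL, the methyltransferase fibrillarin (chromosome 19, 39834458 to 39846414, minus strand), stood at 188, 192 and 188 CPM in the aggregate libraries and 114, 107 and 115 CPM in the diffuse libraries (log2 fold change 0.76, SE 0.04, adjusted p = 4.20e-35). Both groups of libraries were tightly spaced and far apart for these 2 genes. Over the alternatives the log2 fold change ran from 0.761 to 0.827 for NOP56 and from 0.569 to 0.802 for FBL. NOP58, the partner scaffold of NOP56, changed less, with 152, 148 and 154 CPM against 125, 127 and 126 CPM (log2 fold change 0.26, SE 0.04, adjusted p = 1.64e-10). Its call was lost when a change beyond 1.2-fold was required (adjusted p = 0.381).

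Of the genes for the 4 proteins of the box H/ACA ribonucleoprotein, which makes pseudouridine, 3 rose. NHP2 (chromosome 5, 178149460 to 178153967, minus strand), an RNA-binding subunit, had 66.3, 66.6 and 65.5 CPM in the aggregate libraries and 38.6, 37.2 and 38.7 CPM in the diffuse libraries (log2 fold change 0.79, SE 0.04, adjusted p = 1.49e-32). NOP10 (chromosome 15, 34341713 to 34343177, minus strand), a small subunit, had 100.1, 101 and 98.9 CPM in the aggregate libraries and 62.8, 55.2 and 57.5 CPM in the diffuse libraries (log2 fold change 0.77, SE 0.04, adjusted p = 1.34e-32). GAR1 had 35.1, 32.2 and 35.03 CPM against 26.5, 26.9 and 28.5 CPM (log2 fold change 0.32, SE 0.05, adjusted p = 4.06e-09), a smaller rise that did not pass beyond 1.2-fold (adjusted p = 0.0702) and was 0.12 with correction for GC content and length (adjusted p = 0.0203). That correction also took NOP10 to 0.51. The log2 fold change of NHP2 ran from 0.532 to 0.839 over the alternatives. DKC1, the pseudouridine synthase dyskerin itself, had 226, 231 and 237 CPM against 226, 221 and 229.7 CPM, overlapping ranges, and did not pass (log2 fold change 0.04, SE 0.04, adjusted p = 0.355). With upper quartile scaling in place of TMM it passed as a rise of 0.08 (adjusted p = 0.0189), and its log2 fold change ran from 0.01 to 0.08 over the alternatives. NHP2 and NOP10 differed by 1.73-fold and 1.71-fold.

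RNA polymerase I and its regulators moved in both directions, with 4 of 6 risen and 2 fallen. POLR1C (chromosome 6, 43509702 to 43562419, plus strand), a subunit shared with RNA polymerase III, stood at 32.02, 32.2 and 32.8 CPM in the aggregate libraries and 15.3, 16.7 and 14.5 CPM in the diffuse libraries (log2 fold change 1.06, SE 0.05, adjusted p = 5.54e-34). POLR1B (chromosome 2, 112541915 to 112577150, plus strand), the second largest subunit, stood at 118, 121 and 119 CPM in the aggregate libraries and 67.4, 67.2 and 70.1 CPM in the diffuse libraries (log2 fold change 0.80, SE 0.04, adjusted p = 3.89e-36). The largest subunit, POLR1A, did not follow: its libraries had 184, 206 and 194 CPM against 206, 208 and 211 CPM, groups that are separated by less than 1 CPM (log2 fold change -0.10, SE 0.04, adjusted p = 0.0114). That small fall is uncertain, because it was lost with upper quartile scaling (adjusted p = 0.162), without aggregates replicate 1 (0.19) or diffuse replicate 3 (0.0541) and against a fold of 1.2 (1), and turned to 0.01 with correction for GC content and length (adjusted p = 0.709). Over all alternatives its log2 fold change ran from -0.14 to 0.01.

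RRN3 (chromosome 16, 15060022 to 15094317, minus strand), the factor TIF-IA that brings RNA polymerase I to its promoter, was the gene with the largest fall of the 44. It stood at 47.5, 47.05 and 50.1 CPM in the aggregate libraries and 89.02, 86.3 and 89.6 CPM in the diffuse libraries (log2 fold change -0.87, SE 0.04, adjusted p = 7.39e-37), so every aggregate library was far below every diffuse library. RRN3 has 2 annotated pseudogenes named after it and lies wholly within PDXDC1 on the other strand, and the labels do not say to which gene the counter gave shared reads. Spliced reads assigned to RRN3 introns alone gave a similar change, with a log2 fold change of -0.92 (edgeR, adjusted p = 9.15e-13). These reads come from the same libraries and cannot show how reads shared with the pseudogenes were placed. MYBBP1A, a nucleolar repressor of polymerase I transcription, rose by 0.74 on the log2 scale and TCOF1, the treacle protein that links polymerase I to RNA modification, by 0.36.

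**Figure D3:**
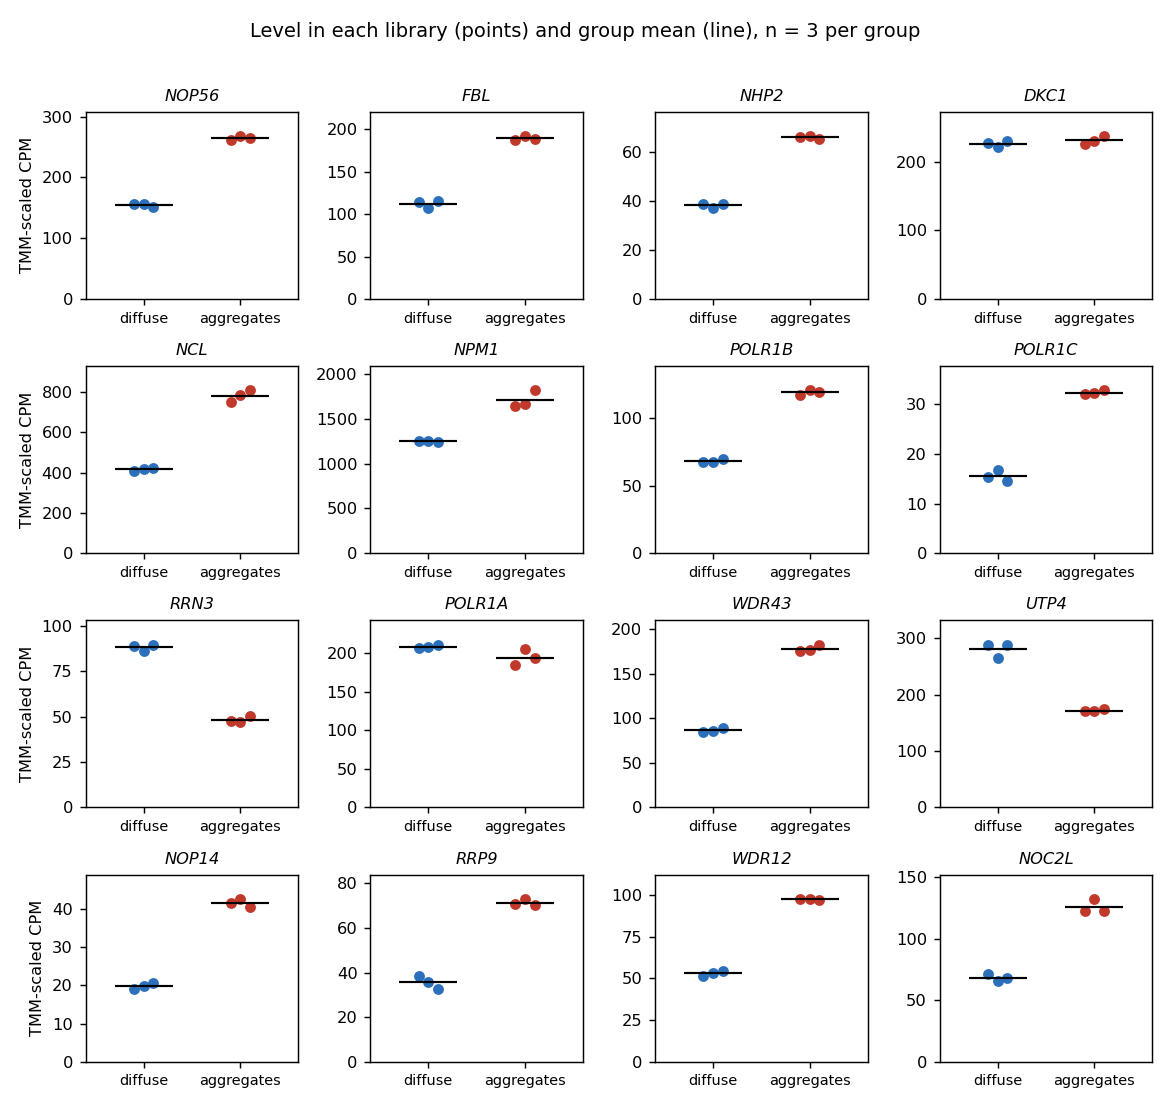
TMM-scaled CPM (vertical axis, from 0) of 16 genes in each diffuse library (blue) and aggregate library (red); black lines are group means of n = 3. RRN3 and UTP4 are the genes whose aggregate points lie clearly below the diffuse points, POLR1A and DKC1 show little or no gap, and the other 12 are higher in aggregate libraries.

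All 5 genes of abundant multifunctional nucleolar proteins rose. NCL, nucleolin (chromosome 2, 231453531 to 231483641, minus strand), stood at 750.1, 786 and 808 CPM in the aggregate libraries and 409.6, 416 and 424 CPM in the diffuse libraries (log2 fold change 0.91, SE 0.04, adjusted p = 4.90e-40), the largest change in this role. NPM1, nucleophosmin (chromosome 5, 171387116 to 171411137, plus strand), a histone and ribosome chaperone that forms the outer nucleolar layer, stood at 1649, 1666 and 1819 CPM in the aggregate libraries and 1255, 1255 and 1237 CPM in the diffuse libraries (log2 fold change 0.45, SE 0.04, adjusted p = 1.51e-18). NPM1 has 45 annotated pseudogenes named after it, so its count is uncertain to the extent that reads were shared. DDX21, an RNA helicase of the nucleolus, stood at 583, 586 and 611 CPM in the aggregate libraries and 445, 448 and 463 CPM in the diffuse libraries (log2 fold change 0.39, SE 0.04, adjusted p = 2.90e-17). GNL3, nucleostemin, rose by 0.28 and NOLC1, a snoRNP chaperone, by 0.26 on the log2 scale, and neither passed beyond 1.2-fold.

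Small subunit processome genes mostly rose, and UTP4 went the other way. The UTP-A subcomplex binds the start of the ribosomal RNA precursor and supports its transcription. Of its 4 genes here 3 rose and 1 fell. WDR43 (chromosome 2, 28894643 to 28948222, plus strand) stood at 176, 177 and 183 CPM in the aggregate libraries and 85.2, 86.05 and 88.8 CPM in the diffuse libraries (log2 fold change 1.04, SE 0.04, adjusted p = 1.90e-45). UTP4 (chromosome 16, 69131291 to 69231130, plus strand), also known as cirhin, stood at 170.5, 170.3 and 174 CPM in the aggregate libraries and 289, 264 and 289 CPM in the diffuse libraries (log2 fold change -0.71, SE 0.04, adjusted p = 7.01e-33). The members of this subcomplex therefore changed in opposite directions with no overlap between groups in either case. WDR75 stood at 96.02, 95.3 and 96.5 CPM in the aggregate libraries and 63.3, 65.3 and 67.2 CPM in the diffuse libraries (log2 fold change 0.56, SE 0.04, adjusted p = 1.01e-24), and UTP15 rose by 0.21, which did not pass beyond 1.2-fold. The locus of UTP4 overlaps SNTB2 on the same strand and CHTF8 on the other, yet spliced reads of UTP4 introns alone also gave a fall (log2 fold change -0.75, edgeR adjusted p = 1.88e-18).

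Among the 8 other processome genes 7 rose and none fell. NOP14 (chromosome 4, 2937933 to 2963385, minus strand), a late processome factor, stood at 41.5, 42.5 and 40.4 CPM in the aggregate libraries and 18.9, 19.9 and 20.7 CPM in the diffuse libraries (log2 fold change 1.06, SE 0.05, adjusted p = 9.66e-37), and an antisense gene, NOP14-AS1, lies across it. RRP9 (chromosome 3, 51933430 to 51941941, minus strand), a protein of the U3 snoRNA particle, stood at 70.9, 73.01 and 70.3 CPM in the aggregate libraries and 38.6, 35.6 and 32.7 CPM in the diffuse libraries (log2 fold change 1.004, SE 0.04, adjusted p = 3.31e-35). UTP3 stood at 76.7, 75.9 and 80.6 CPM in the aggregate libraries and 42.8, 40.8 and 43.7 CPM in the diffuse libraries (log2 fold change 0.87, SE 0.04, adjusted p = 7.90e-36). These 3 genes changed between 1.83 and 2.09-fold. UTP6 rose by 0.58, UTP20 by 0.54, UTP18 by 0.26 and NOC4L by 0.25 on the log2 scale. Neither UTP18 nor NOC4L passed beyond 1.2-fold, and correction for GC content and length took them to 0.12 (edgeR adjusted p = 0.00123) and 0.10 (0.0428). UTP14A, which activates the helicase that releases U3, had 29.9, 30.7 and 32.1 CPM against 29.9, 31.2 and 31.5 CPM and did not pass (log2 fold change 0.00, SE 0.05, adjusted p = 0.992), and its sign depends on the setting.

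All 3 genes of late small subunit maturation rose by similar amounts. BYSL, bystin, stood at 81.2, 83.4 and 81.8 CPM in the aggregate libraries and 51.9, 46.9 and 50.4 CPM in the diffuse libraries (log2 fold change 0.72, SE 0.04, adjusted p = 1.16e-30). RRP12, a factor of pre-ribosome export, stood at 117, 126 and 119 CPM in the aggregate libraries and 76.8, 73.8 and 73.7 CPM in the diffuse libraries (log2 fold change 0.69, SE 0.04, adjusted p = 2.38e-31). LTV1, which acts in assembling the small subunit head, stood at 72.98, 72.3 and 75.5 CPM in the aggregate libraries and 47.2, 47.8 and 47.6 CPM in the diffuse libraries (log2 fold change 0.63, SE 0.04, adjusted p = 8.16e-27). Their folds of 1.65, 1.61 and 1.55 lie close together in this fit. Over the alternatives the log2 fold change ran from 0.534 to 0.771 for BYSL, 0.663 to 0.759 for RRP12 and 0.439 to 0.676 for LTV1.

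For the large subunit, all 3 genes of the PeBoW complex, needed for processing of the precursor to 28S and 5.8S RNA, rose. WDR12 (chromosome 2, 202874782 to 203014798, minus strand) stood at 97.5, 97.4 and 97.01 CPM in the aggregate libraries and 51.7, 53.1 and 54.2 CPM in the diffuse libraries (log2 fold change 0.88, SE 0.04, adjusted p = 8.64e-38). PES1, pescadillo (chromosome 22, 30576625 to 30607083, minus strand), stood at 177, 192 and 192 CPM in the aggregate libraries and 113, 102 and 107 CPM in the diffuse libraries (log2 fold change 0.80, SE 0.04, adjusted p = 2.36e-33). BOP1 (chromosome 8, 144262102 to 144291370, minus strand) changed least of the 3, with 227, 239.6 and 236 CPM against 210.1, 186 and 184 CPM (log2 fold change 0.28, SE 0.04, adjusted p = 4.59e-09), and did not pass beyond 1.2-fold (adjusted p = 0.256). SCX, a gene on the other strand, overlaps BOP1, as CARF overlaps WDR12.

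The 8 other large subunit factors all rose, over a range of 0.16 to 0.92 on the log2 scale. PPAN (chromosome 19, 10106289 to 10111634, plus strand) stood at 28.7, 31.8 and 30.7 CPM in the aggregate libraries and 16.7, 15.8 and 15.9 CPM in the diffuse libraries (log2 fold change 0.92, SE 0.05, adjusted p = 1.42e-29). It shares exons with the readthrough gene PPAN-P2RY11, and its call was lost on spliced reads that belong to PPAN alone, of which there were 5 to 22 per library (log2 fold change 0.79, edgeR adjusted p = 0.105). NOC2L (chromosome 1, 944204 to 959309, minus strand), which carries pre-60S particles out of the nucleolus, stood at 123, 132 and 123 CPM in the aggregate libraries and 71.8, 65.6 and 68.1 CPM in the diffuse libraries (log2 fold change 0.88, SE 0.04, adjusted p = 1.67e-37). RRP1, a factor of 28S RNA maturation, stood at 38.4, 40.4 and 39.8 CPM in the aggregate libraries and 25.3, 23.2 and 22.3 CPM in the diffuse libraries (log2 fold change 0.75, SE 0.05, adjusted p = 2.19e-26). NOP16 rose by 0.43, NIP7 by 0.29, RRP1B by 0.26, NOC3L by 0.18 and NOP2, a methyltransferase of 28S RNA, by 0.16, and of these only NOP16 passed beyond 1.2-fold.

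The rest of the pathway was taken from a list of 94 further ribosome biogenesis genes, also chosen with earlier results known. Of these 77 rose, 8 fell and 9 did not pass, with a median log2 fold change of 0.39. Among 38 further small subunit factors 30 rose and 3 fell. The largest rises were those of NOB1, the nuclease that makes the end of 18S RNA, from 24.3 ± 0.69 to 55.3 ± 0.337 CPM (SD, n = 3), of TSR1, from 47.2 ± 1.4 to 100.1 ± 0.634 CPM, and of the acetyltransferase gene NAT10, from 52.3 ± 2.02 to 108 ± 1.49 CPM. RIOK2, a kinase of late maturation, fell by 0.34, KRR1 fell by 0.31 and UTP23 fell by 0.16 on the log2 scale. Among 45 further large subunit factors 41 rose and 2 fell, led by GTPBP4 (0.95), NOL9 (0.92) and RRS1 (0.91), with LAS1L (-0.28) and EFL1 (-0.17) falling. The 11 further genes of RNA polymerase I were more mixed: 6 rose and 3 fell. POLR1H (listed as ZNRD1) rose by 1.05, POLR1G (CD3EAP) by 0.56 and POLR1D by 0.46, while the termination factor gene TTF1 (-0.41), the promoter-binding factor gene UBTF (-0.30) and POLR1E (-0.26) fell. The share of this list that rose was 54.5%. Of the genes for proteins of the finished cytosolic ribosome, 79 of 83 tested rose and none fell (median 0.30 on the log2 scale).

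Genes of the MYC network moved both ways, 5 of 12 risen and 6 fallen. MYC itself stood at 359, 385 and 374 CPM in the aggregate libraries and 207, 206 and 199 CPM in the diffuse libraries (log2 fold change 0.87, SE 0.04, adjusted p = 1.45e-39). Its partner MAX fell (-0.27), and MLX rose (0.67). Genes of MAX-binding repressors did not all move the same way. MXD3 (-1.16), MXI1 (-0.35), MXD4 (-0.27) and MGA (-0.10) fell, MXD1 (0.63) rose and MNT (0.03) did not pass.

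Promoters were searched for CACGTG, which reads the same on both strands, in RefSeq windows (GRCh38.p14) from 250 bases before to 50 bases after the annotated start. Of the 44 genes 38 had an entry. Of these 18 (47.4%) hold CACGTG, against 8.77% of the 27305 genes with an entry, 12.1% of the 12265 tested genes with one and 28.7% of 80 further ribosome biogenesis genes. In 17 of the 18 it lies within 50 bases of the start. The 18 genes with the letters had a median log2 fold change of 0.58 (range -0.71 to 1.06) and the 20 without them 0.66 (range -0.87 to 1.06). The difference between these medians was not tested, and the 6 genes with no entry are left out. For the 5 risen genes with the largest changes among those with the letters near the start, and for UTP4, the one that fell, 30 bases with CACGTG in the middle are shown, 5′ to 3′ on the strand of the gene, with the motif in capitals. They are NOP14 at chr4:2963374-2963403 (minus strand), WDR43 at chr2:28894658-28894687 (plus strand), RRP9 at chr3:51941892-51941921 (minus strand), PES1 at chr22:30591880-30591909 (minus strand), NOP10 at chr15:34343130-34343159 (minus strand) and UTP4 at chr16:69132621-69132650 (plus strand).
NOP14: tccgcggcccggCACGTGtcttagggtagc
WDR43: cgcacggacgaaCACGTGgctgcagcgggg
RRP9: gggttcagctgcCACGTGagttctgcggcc
PES1: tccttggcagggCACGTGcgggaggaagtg
NOP10: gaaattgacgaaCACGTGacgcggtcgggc
UTP4: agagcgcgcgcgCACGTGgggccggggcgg
The letters begin at base 16 of the annotated transcript in NOP14, 4 in WDR43 and 14 in PES1, and 5 bases before the start in RRP9, 11 in NOP10 and 16 in UTP4. NOP10 holds the letters a second time, 170 bases before the start. Whether the letters or their position bear on the changes was not tested.

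Use of introns in these genes was measured from LeafCutter counts of spliced reads, in which introns that share a splice site form a cluster. Coordinates are first and last intron base on hg38. Of 148 tested clusters in 43 of the genes (UTP3 has a single exon), 9 changed (6.08%), against 5.02% of all 35898 clusters tested (edgeR diffSpliceDGE with Simes p-values per cluster, adjusted over all clusters), so changed splicing was about as frequent as elsewhere. The 9 clusters lie in 9 genes. Among these 9, only the RRN3 cluster had an intron that shifted by at least 10 points of percent use. An intron of NOP2 stood at 26.9 ± 7.36% against 37.3 ± 4.08% (SD, n = 3), in a cluster that did not pass (adjusted p = 0.329).

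The clusters of NPM1, NOP56, RRN3, DKC1, UTP6 and MYBBP1A kept their call in all 9 alternatives, and those of NOP58, NOLC1 and WDR43 lost it in at least 1. Among the 11 single introns called in these clusters, 8 (72.7%) skip an exon and fell, and they belong to 7 genes. Over all changed clusters 774 of 2524 called introns (30.7%) skip an exon and fell and 188 skip an exon and rose, so lower exon skipping was also the more frequent direction among all genes. Whether the share differs in these genes was not tested.

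In RRN3 the skipping intron (chromosome 16, 15086259 to 15091314, minus strand) passes over an annotated coding exon of 90 bases (15086365 to 15086454) whose loss leaves the reading frame intact. Skipping took 28.9%, 31.4% and 30.7% in diffuse libraries and 8.42%, 12.5% and 12.03% in aggregate libraries, from 75, 82 and 90 against 12, 18 and 16 skipping reads (exon inclusion 69.7 ± 1.27% against 89.0 ± 2.23%, SD, n = 3; cluster adjusted p = 8.01e-06, at most 0.00112 over the alternatives). So the gene with the largest fall of the 44 also changed its exon use, and more of the remaining RRN3 mRNA held the exon. The exon, which carries this splice difference, is given 5′ to 3′ on the strand of the gene from the GENCODE 29 transcript RRN3-201, in lower case.
RRN3 exon: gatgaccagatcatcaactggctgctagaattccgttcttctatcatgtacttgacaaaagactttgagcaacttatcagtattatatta
Exon skipping was also lower in DKC1, where the 65-base exon at X, 154766997 to 154767061, was skipped in 14.4%, 10.8% and 12.9% in diffuse and 5.68%, 5.88% and 7.36% in aggregate libraries (cluster adjusted p = 3.78e-05). The summed level of DKC1 did not pass. In UTP6 an unannotated skip of an 82-base exon (chromosome 17, 31884424 to 31884505) went from 8.03%, 3.82% and 5.41% to 1.16%, 1.21% and 0.17% (cluster adjusted p = 5.37e-05).

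Other skipping events were rare. In NPM1 skipping of an 80-base exon (chromosome 5, 171390051 to 171390130) fell from 0.53%, 0.58% and 0.58% to 0.22%, 0.16% and 0.28% (cluster adjusted p = 1.32e-06), a small share that rests on 36 to 84 skipping reads per library. In MYBBP1A an unannotated skip of an 87-base exon (chromosome 17, 4545259 to 4545345) had 1, 10 and 11 reads in diffuse libraries and 0 of 1557 cluster reads in aggregate libraries, which allows a share of up to 0.193% (counting error only, cluster adjusted p = 0.00142). In NOP58 and NOLC1 the falling skip introns held under 1% of the cluster in both groups, and the call was lost in some alternatives (cluster adjusted p up to 0.132 and 0.234). WDR43 had an unannotated acceptor with 1, 6 and 4 reads in diffuse libraries and 0 of 4620 in aggregate libraries (cluster adjusted p = 0.0265, up to 1 over the alternatives).

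NOP56 showed another kind of change, a choice between donor sites in front of 1 acceptor (exon starting at chromosome 20, 2656401). The upstream donor gives the coding transcript. The downstream donor lengthens the exon by 180 bases, 2656035 to 2656214, a stretch that contains the box C/D snoRNA gene SNORD86 (2656097 to 2656182). The NOP56 protein binds snoRNAs of this class, and earlier work on NOP56 describes SNORD86 as an element that acts on this donor choice. The downstream donor took 53.0%, 51.1% and 51.2% of reads from both donors in aggregate libraries and 33.9%, 41.0% and 35.5% in diffuse libraries, 51.8 ± 1.07% against 36.8 ± 3.73% (SD, n = 3), with no overlap. The downstream intron rose relative to its cluster (adjusted p = 3.28e-06 over introns; cluster adjusted p = 7.83e-06, at most 0.00182 over the alternatives). Unscaled reads of the upstream, coding donor numbered 913, 1122 and 884 in aggregate and 655, 574 and 628 in diffuse libraries, and those of the downstream donor 1029, 1174 and 926 against 336, 399 and 345. Scaled like CPM to the intron total of each library, which was higher in aggregate libraries, the upstream donor stood at 31.3, 35 and 31 against 25.8, 22.4 and 23.3, and the downstream donor at 35.3, 36.7 and 32.5 against 13.3, 15.6 and 12.8. The snoRNA held by the longer form is shown 5′ to 3′, with 2 stretches in capitals: a CTGA (box D letters) near its end, and the 7 bases that come nearest to NTGATGA (box C letters) within the first 18 bases, at 6 of 7 positions. The same 7 letters occur again from base 57 and are left in lower case.
SNORD86: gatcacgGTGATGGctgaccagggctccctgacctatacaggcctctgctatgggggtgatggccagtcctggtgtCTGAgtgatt

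**Figure D4:**
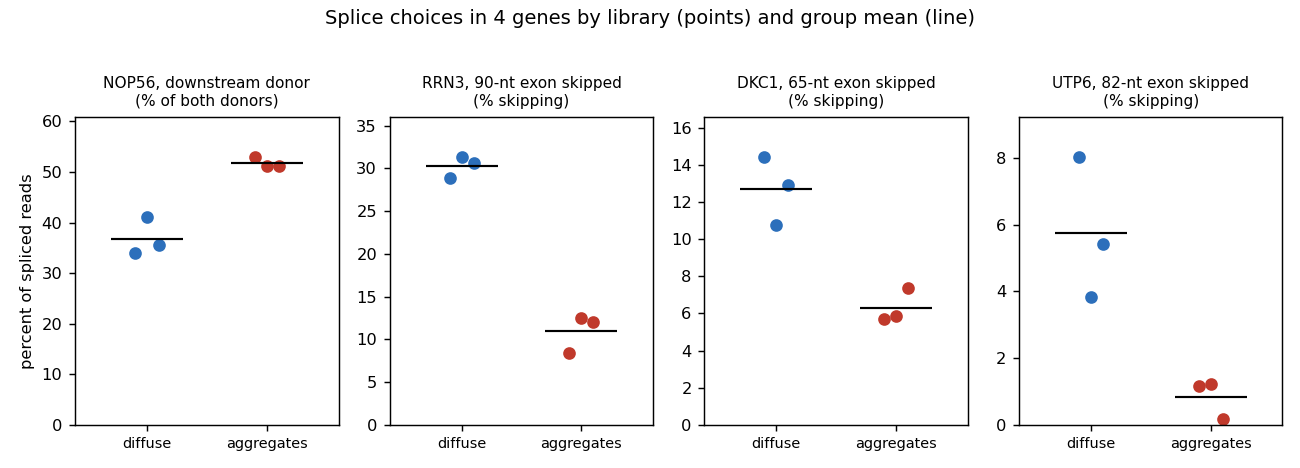
Percent of spliced reads (vertical axis, from 0) for 4 splice choices in each diffuse (blue) and aggregate (red) library; black lines are means of n = 3. The downstream NOP56 donor is used more in aggregate libraries, at 51.8% against 36.8%, and exon skipping in RRN3, DKC1 and UTP6 is lower there, with no overlap between groups in any panel.

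Among the 44 genes 7 hold snoRNA genes in GENCODE 29: NOP56, NOP58, DKC1, NCL, GNL3, WDR43 and PPAN. Their log2 fold changes ran from 0.04 to 1.04 with a median of 0.78. The snoRNAs themselves are not polyadenylated and were not analysed here.

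As a further reading, gene levels were taken from spliced reads alone, whose splice sites carry the strand, so that antisense neighbours do not enter. This was chosen after seeing the data, and it uses the same libraries, so it is no new evidence on the cells. Of 43 genes tested 35 rose and 4 fell, against 34.0% and 34.2% of 12107 genes, and 42 of 43 had the sign given by the gene counts. The exception was UTP14A, which fell on this scale (log2 fold change -0.20, edgeR adjusted p = 0.0362) and had not passed on gene counts. NOP2 and NOC3L, the genes with the smallest rises, lost their calls (edgeR adjusted p = 0.663 and 0.13), as did PPAN. NOP2 overlaps the gene AC006064.6 on the same strand over 11806 bases. Introns annotated in more than 1 gene were left out, and NOP2 had 231 to 275 spliced reads per library. The part of this in its lost call was not tested.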

How the data were processed

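Per the submitters' processing notes, fastp 0.23.2 and STAR 2.7.11a with build hg38 were used. The authors deposited raw whole-number counts per gene (36601 rows) and LeafCutter counts per intron (153462 introns), neither normalized. Which program counted genes, with which strand setting and annotation, is not stated in the labels, so overlapping genes and pseudogene copies remain uncertain. Gene tests used the edgeR package, version 4.0.16, under R 4.3.3 (filterByExpr, TMM, robust quasi-likelihood fit, 3 against 3 libraries, Benjamini-Hochberg over 17839 genes, threshold 0.05); the common biological coefficient of variation was 3.08%. Introns with at least 10 counts over all libraries, in clusters with at least 10 counts per library, were tested with diffSpliceDGE and placed in genes with GENCODE 29. Exon skipping is the skipping count over itself plus the mean of both flanking introns. Both tests were tested on simulated data. Alternatives were other scalings, filters, DESeq2 1.42.0, a fold threshold, GC and length correction, a replicate block and leaving out each library.

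The members and gene lists were chosen with earlier results of these data known. The summed level of a list of blood cell markers is not reported here. All 44 genes are named. In each of 9 roles, up to 3 genes with the largest absolute change are given per library. From each pathway list, the named genes are up to 3 that rose most and 3 that fell most (4 where values tied). They had non-overlapping groups and an average of 5 CPM or more. MYC was named whatever its value, and MNT and MGA were added beside the other repressor genes. For splicing, up to 8 changed clusters are described, and the remaining one was added after its values were seen. Libraries of 1 group varied beyond counting noise (chi-square per degree of freedom 2.59 to 6.34), so none is a copy of another.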

Additional observations from a re-analysis of the deposited data

How the results depend on the processing

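Of the 44 genes, 41 kept direction and call in all 15 alternative fits to the gene counts other than the 1.2-fold threshold. The exceptions were POLR1A, DKC1 and UTP14A. The reading from spliced reads is not among these 15, and there NOP2, NOC3L and PPAN lost their calls too. The number of risen genes was 39 whichever library was left out and of fallen genes 2 to 3; the median log2 fold change ran from 0.517 to 0.563. That median was 0.592 with upper quartile scaling, 0.562 among genes of at least 5 CPM, 0.481 with GC and length correction and 0.482 with that correction and the replicate block. Upper quartile scaling moved the median of all genes from 0.01 to 0.06. Requiring a change beyond 1.2-fold left 4483 risen genes in all and 5 fallen among the further pathway genes and MYC network (14 without it). Leaving out 1 library gave 6464 to 6641 risen and 6479 to 6693 fallen genes in all, 79 to 81 and 14 to 15 among the further pathway genes and MYC network together (82 and 14 with all libraries), and 6 to 9 changed clusters. UTP14A turned to -0.001 with RLE scaling, 0.000 without a filter, -0.031 with GC and length correction (-0.031 with the block too), -0.002 with DESeq2, and ranged from -0.030 (without aggregates replicate 3) to 0.027 (without aggregates replicate 1) when 1 library was left out, with -0.027 without diffuse replicate 1. POLR1A turned to 0.014 with GC and length correction and 0.013 with the block too; the cause was not tested. The labels do not say that replicate numbers pair the libraries, and deviations from the group means correlated at 0.036, 0.083 and 0.060 within numbers, each library correlating best with its own number. With the replicate number as a block 39 genes rose, 3 fell and 8 clusters changed, WDR43 losing its call (adjusted p = 0.0909). Counts of 610 or more per gene leave little counting error at gene level, whereas skipping events with few reads per library, as in MYBBP1A and UTP6, are limited by depth.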
